A study of Mus musculus and Homo sapiens with 47 samples.

Results

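Tuft cell genes were followed here through 9 genes known from this cell type: Pou2f3, Gfi1b, Trpm5, Rgs13, Dclk1, Avil, Alox5ap, Ltc4s and Hpgds. They are 9 of the 24014 genes in the bulk count table and were picked by name, with earlier results of these data known. All 9 passed the filter on low counts. The series deleted Eed, a core subunit of the histone methylase PRC2, from mouse intestinal stem cells. RNA came from adult B6;129 mixed background mice of the genotype Eed F/F; Lgr5EGFP-IRES-CreERT, in which a tamoxifen-inducible Cre and GFP are made from the stem cell gene Lgr5. Tamoxifen was given daily for 5 days and every other day from then on, after which epithelium of the proximal intestine was sorted for GFP. Bulk RNA-seq gave 3 libraries at day 9, 2 at day 14, 2 at day 21 and 1 at day 30, and 1 droplet single-cell library each was made at days 7, 12 and 16. Every group carried the floxed alleles and received tamoxifen, so day 9 is the earliest bulk stage after deletion and not an Eed-intact control. The Lgr5 allele is known to be active in only part of the crypts. GFP is also known to persist for a time in cells that have just left the stem cell state. The labels call the bulk libraries biological replicates and do not say how many animals each held.

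Tuft cells are rare chemosensory cells of the intestinal epithelium that arise from Lgr5 stem cells. They detect luminal metabolites through a cascade borrowed from taste cells, in which phospholipase C releases calcium and the channel Trpm5 depolarises the cell, and they answer with interleukin 25, acetylcholine, leukotrienes and prostaglandins. Pou2f3 is the transcription factor without which they do not form. Dclk1, a microtubule-binding kinase, is their customary marker in the mouse gut.

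Promoter sequences from RefSeq (assembly GRCm38.p6, 250 bases before to 50 bases after a gene's start) matched 7 of the 9 genes, with 8 promoters because Dclk1 has 2; none was used for Pou2f3 or Alox5ap. Since Pou2f3 is a POU-domain factor, a class known to recognise the octamer ATGCAAAT, both strands were searched for it. The octamer lay in 1 of the 8 promoters, that of Hpgds, starting 174 bases before the gene's start, against 1.74% of all 32851 promoters of the same length. The shorter ATGCAAA, which the octamer contains and which was tried after the first search was seen, lay in 2 of the 8, those of Hpgds and Avil, against 4.63% of all promoters. The Avil promoter held it on either strand, at 115 and 15 bases before the start. In the following pair of promoters, shown for these matches, capitals mark the octamer in Hpgds (chr6:65144681-65144980, minus strand) and the 7-base match in Avil (chr10:127000459-127000758, plus strand).
Hpgds: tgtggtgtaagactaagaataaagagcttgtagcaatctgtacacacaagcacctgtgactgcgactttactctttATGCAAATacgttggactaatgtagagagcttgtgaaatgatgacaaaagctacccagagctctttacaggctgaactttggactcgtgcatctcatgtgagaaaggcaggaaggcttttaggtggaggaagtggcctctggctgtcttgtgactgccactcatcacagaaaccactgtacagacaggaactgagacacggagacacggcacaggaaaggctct
Avil: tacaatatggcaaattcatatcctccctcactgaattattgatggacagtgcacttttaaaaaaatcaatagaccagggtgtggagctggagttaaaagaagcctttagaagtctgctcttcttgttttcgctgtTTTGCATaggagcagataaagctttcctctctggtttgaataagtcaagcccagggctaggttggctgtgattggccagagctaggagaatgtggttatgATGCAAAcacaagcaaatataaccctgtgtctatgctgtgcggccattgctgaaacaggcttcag
A match in letters is a description and does not show binding. CpG dinucleotides, the sequence feature around which PRC2 marks are commonly centred, numbered 0 to 7 in the 8 promoters, and the median promoter of the whole table held 7. Gfi1b held 7 (chr2:28621933-28622232, minus strand) and Rgs13 held 0 (chr1:144177323-144177622, minus strand). These 2 are printed as the ends of the range, with each CG in capitals.
Gfi1b: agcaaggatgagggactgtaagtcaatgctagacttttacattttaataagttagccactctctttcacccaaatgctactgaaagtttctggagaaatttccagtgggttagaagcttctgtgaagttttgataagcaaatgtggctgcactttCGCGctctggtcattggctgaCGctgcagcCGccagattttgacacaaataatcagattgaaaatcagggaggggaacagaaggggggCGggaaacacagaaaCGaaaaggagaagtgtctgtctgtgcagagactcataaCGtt
Rgs13: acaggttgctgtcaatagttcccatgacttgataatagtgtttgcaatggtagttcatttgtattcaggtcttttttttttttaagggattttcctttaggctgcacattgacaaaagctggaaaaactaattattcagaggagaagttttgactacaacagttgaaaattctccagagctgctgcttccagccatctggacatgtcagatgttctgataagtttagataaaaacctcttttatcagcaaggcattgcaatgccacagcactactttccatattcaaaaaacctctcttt

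Bulk libraries held 21328684 to 27900351 counts, so that 1 count was worth 0.0329 to 0.0486 counts-per-million (CPM, scaled with TMM size factors). All 9 genes were detected in every bulk library. The day 14 libraries detected fewer genes, 14988 and 13707, against 16163 to 16952 in the other 6. Eed itself was counted at 81.5 and 86.1 CPM at day 14 and at 34.2 to 46.3 CPM in the other libraries. A count over the whole gene does not measure a deletion of part of it, so these values check nothing about recombination. Lgr5 stood at 115 to 186 CPM in all 8 libraries. Summed over the 9 tuft cell genes, the level was 37.2 to 88.2 CPM at day 9, 111 and 128 at day 14, 310 and 122 at day 21, and 283 at day 30.

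The fitted levels of all 9 genes were above day 9 at each later day, though not every difference passed the test. With all libraries fitted, Ltc4s, Rgs13 and Gfi1b rose by day 14, while Dclk1, Avil, Trpm5, Pou2f3, Hpgds and Ltc4s rose by day 21. Several of these rises were not called when single libraries were left out, as given below. Dclk1, Avil, Trpm5, Pou2f3 and Ltc4s were higher in the single day 30 library. By edgeR's quasi-likelihood test, 3 of 9 passed an adjusted p of 0.05 at day 14, where 25.4% of the 14692 tested genes were called higher. At day 21, 6 of 9 passed, beside 7.46% of all tested genes, and at day 30, 5 of 9, beside 3.67%. No member was called lower, where 25.7%, 12.8% and 6.62% of all tested genes were at days 14, 21 and 30. The median log2 difference of the 9 from day 9 was 0.78 at day 14, 1.59 at day 21 and 1.88 at day 30, while the median of all tested genes was -0.04, -0.01 and -0.01. The 3 comparisons share the day 9 libraries. Since the 9 were chosen with earlier results of these data known, these counts are not those of an independent list. In sorted bulk samples, more tuft cells and more of each RNA per tuft cell cannot be told apart. Day 30 has 1 library, which the fit assumes to vary like the other days.

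**Figure D1:**
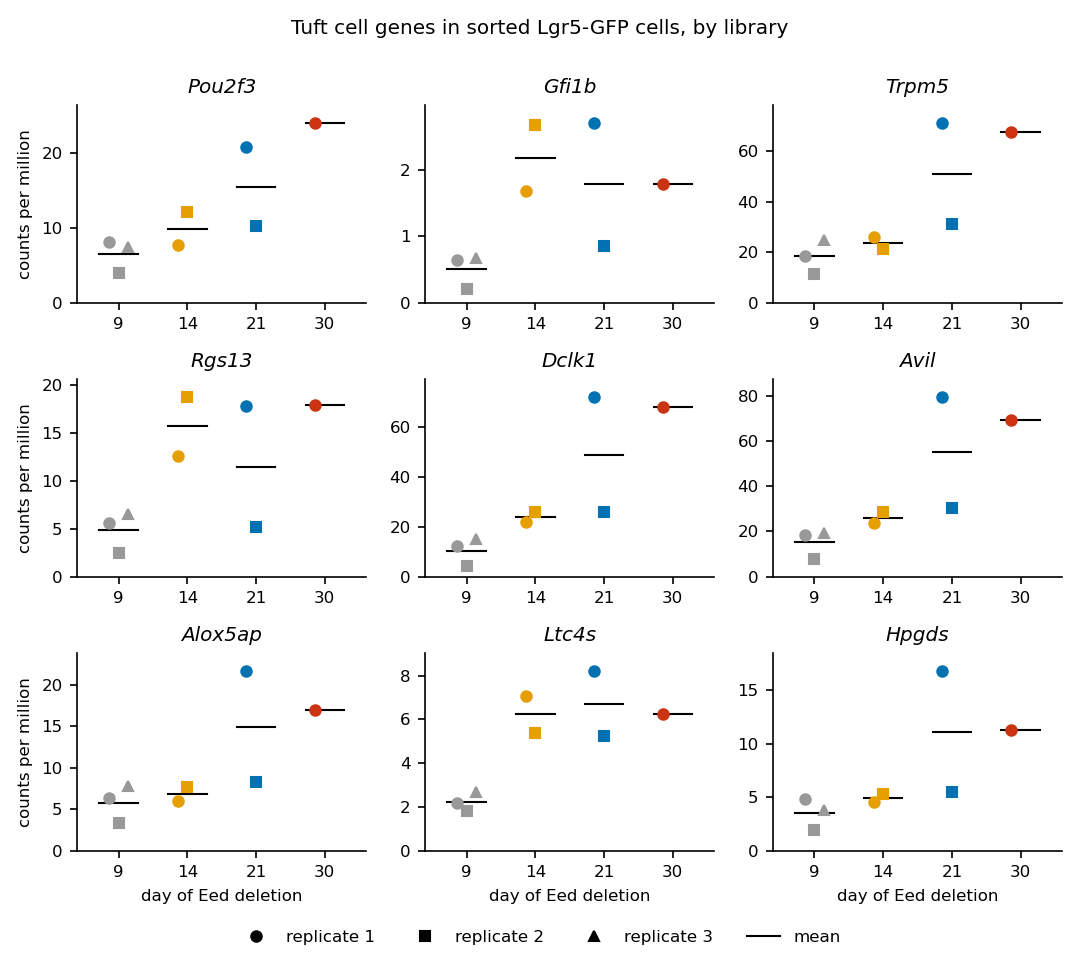
CPM (y axis, own scale per gene) of each tuft cell gene in the 8 bulk libraries by day (x axis), with 1 mark per library by replicate number and a bar at the day's mean. At day 21, replicate 1 lies above replicate 2 in all 9 panels, and at day 9 replicate 2 is the lowest of the 3.

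Pou2f3, the master regulator of the lineage, was counted at 8.09, 3.98 and 7.40 CPM at day 9, 7.62 and 12.05 at day 14, 20.8 and 10.2 at day 21, and 23.9 at day 30. Both day 21 libraries and the day 30 library lay above all 3 day 9 libraries, whereas the days 9 and 14 overlapped. Its log2 difference from day 9 was 1.25 ± 0.38 (SE, adjusted p = 0.0475) at day 21 and 1.88 ± 0.44 (adjusted p = 0.0309) at day 30. At day 14 it was 0.60 ± 0.38 (adjusted p = 0.223).

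Gfi1b, a zinc-finger repressor that in the gut marks tuft cells and in blood acts in red cell and platelet precursors, was the scarcest of the 9. It had 15, 5 and 14 reads at day 9 (0.646, 0.203 and 0.677 CPM) and 36 and 55 at day 14 (1.67 and 2.67 CPM). Day 21 had 76 and 26 reads (2.70 and 0.854 CPM), and day 30 had 54 (1.79 CPM). Every later library lay above every day 9 library. The day 14 difference passed the test, at 2.1 ± 0.65 on the log2 scale (4.28-fold, adjusted p = 0.0242). The later ones did not, at 1.80 ± 0.64 (adjusted p = 0.0822) for day 21 and 1.82 ± 0.76 (adjusted p = 0.172) for day 30.

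Trpm5, the calcium-activated cation channel at the end of the taste-type cascade, was among the most abundant by CPM, which is not corrected for gene length. It stood at 18.7, 11.4 and 25.04 CPM at day 9, 26.03 and 21.4 at day 14, 71.3 and 31.1 at day 21, and 67.6 at day 30. The day 9 and day 14 libraries overlapped, and those of days 21 and 30 lay above both. Relative to day 9, Trpm5 rose 2.79-fold by day 21 (log2 1.48 ± 0.37, adjusted p = 0.025) and stood 3.69-fold higher at day 30 (adjusted p = 0.0295). Trpm5 was also the only member called between days 21 and 14, at 1.11 ± 0.41 on the log2 scale (adjusted p = 0.0457).

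Rgs13, which speeds the shut-off of G-protein signals, followed another course. Its CPM was 5.60, 2.48 and 6.57 at day 9, 12.6 and 18.7 at day 14, 17.8 and 5.19 at day 21, and 17.9 at day 30. Day 14 and day 30 lay above all day 9 libraries, and day 21 replicate 2 fell within the day 9 range. The gene rose 3.22-fold by day 14 (log2 1.69 ± 0.52, adjusted p = 0.0249). At day 21 it was at 1.24 ± 0.52 (adjusted p = 0.129) and at day 30 at 1.88 ± 0.61 (adjusted p = 0.0914), neither past the threshold.

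Dclk1 was measured at 12.2, 4.14 and 14.99 CPM at day 9, 21.8 and 25.9 at day 14, 72.03 and 25.8 at day 21, and 68.1 at day 30. No later library overlapped day 9, and day 21 replicate 2 was within the day 14 range. The means were 10.5 ± 5.63 CPM at day 9 (SD, n = 3), 23.8 ± 2.96 at day 14 (n = 2) and 48.9 ± 32.7 at day 21 (n = 2). The kinase rose 4.70-fold by day 21 (log2 2.23 ± 0.51, adjusted p = 0.0177) and was 6.55-fold higher at day 30 (log2 2.71 ± 0.59, adjusted p = 0.0229). Both differences were the largest among the 9 in their comparison. At day 14 the log2 difference of 1.20 ± 0.52 missed the threshold (adjusted p = 0.0844).

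Avil encodes advillin, an actin-bundling protein of the villin family found in the long rootlets of the tuft. Its CPM values were 18.3, 7.96 and 19.3 at day 9, 23.6 and 28.4 at day 14, 79.3 and 30.4 at day 21, and 69.1 at day 30. They ran close to those of Dclk1 across the 8 libraries (Pearson r of log2 CPM 0.992), the tightest pair among the members. Avil rose 3.62-fold by day 21 (log2 1.86 ± 0.43, adjusted p = 0.0180) and was 4.57-fold higher at day 30 (adjusted p = 0.0277). Its day 14 value of 0.78 ± 0.44 did not pass (adjusted p = 0.168), although both day 14 libraries lay above all of day 9.

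Alox5ap, Ltc4s and Hpgds serve the synthesis of lipid mediators. Alox5ap, or FLAP, hands arachidonic acid to 5-lipoxygenase, Ltc4s joins the product to glutathione as leukotriene C4, and Hpgds makes prostaglandin D2. Ltc4s had 2.20, 1.83 and 2.66 CPM at day 9, 7.06 and 5.39 at day 14, 8.20 and 5.22 at day 21, and 6.23 at day 30. All later libraries lay above day 9, with no order among the later days, and Ltc4s was the only member called at all 3 later days. Its log2 differences from day 9 were 1.48 ± 0.30 at day 14 (adjusted p = 0.00306), 1.59 ± 0.29 at day 21 (adjusted p = 0.007) and 1.48 ± 0.35 at day 30 (adjusted p = 0.0324).

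Hpgds stood at 4.82, 1.95 and 3.82 CPM at day 9, 4.56 and 5.29 at day 14, 16.8 and 5.45 at day 21, and 11.3 at day 30. The days 9 and 14 overlapped, and day 21 replicate 2 lay just above the highest day 9 library. The synthase rose 3.15-fold by day 21 (log2 1.65 ± 0.48, adjusted p = 0.0434), and its day 30 value of 1.68 ± 0.57 did not pass (adjusted p = 0.103). Alox5ap was at 6.29, 3.29 and 7.73 CPM at day 9, 6.04 and 7.63 at day 14, 21.6 and 8.21 at day 21, and 16.99 at day 30. Its log2 differences from day 9 were 0.25 ± 0.45 at day 14 (adjusted p = 0.673), 1.37 ± 0.43 at day 21 (adjusted p = 0.0568) and 1.56 ± 0.52 at day 30 (adjusted p = 0.0951). None passed, while both day 21 libraries and the day 30 library were above all day 9 libraries.

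**Figure D2:**
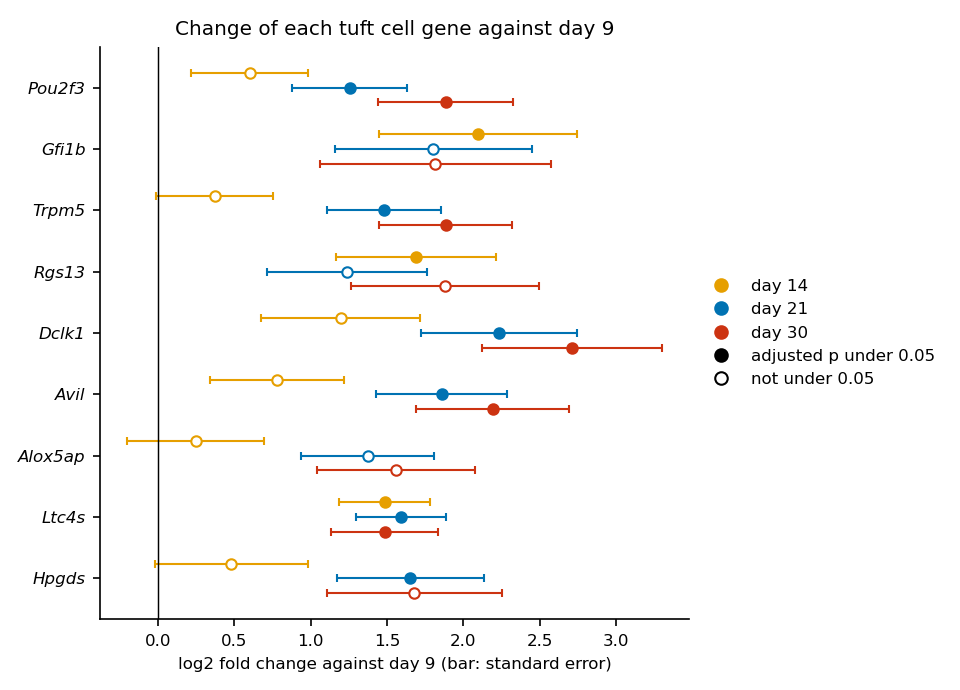
Log2 difference from day 9 with its SE (x axis) for each tuft cell gene (y axis) at days 14, 21 and 30, from edgeR's quasi-likelihood fit. Filled marks have an adjusted p under 0.05. Dclk1 reaches 2.23 at day 21 and 2.71 at day 30, and Ltc4s lies near 1.5 at all 3 days.

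Counted by separation in place of the test, 5 of 9 genes had day 14 libraries that all lay above day 9, beside 33.6% of all tested genes. This held for 8 of 9 at day 21, with Rgs13 the exception, beside 24.7%, and for all 9 at day 30, beside 36.1%. Between days 21 and 14, 1 of 9 genes was called higher where 29.5% of all tested genes were, and none lower, where 29.1% were. The count of higher calls was 0 without day 9 replicate 1, without day 21 replicate 1 or when either day 14 library was left out, 3 without day 9 replicate 2 and 5 without day 21 replicate 2. Without day 21 replicate 1, Rgs13 was called lower (log2 -1.59, adjusted p = 0.0336). The median difference of the 9 was 1.04, and Gfi1b (-0.29) and Rgs13 (-0.45) had the only negative values, neither past the threshold with all libraries (adjusted p = 0.724 and 0.517). Between days 30 and 21, no member and no gene of the table was called by edgeR. The smallest adjusted p over all genes was 0.0606, 1218 genes had an unadjusted p under 0.05, and DESeq2 called 299 genes and no member, as edgeR without the filter called 36 and no member. The members' log2 differences there ran from -0.11 to 0.64.

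The number of members called depended on single libraries. With any 1 of the 3 day 9 libraries left out, Dclk1, Avil and Ltc4s were still called at day 21, and Pou2f3 and Hpgds were not. Trpm5 lost its day 21 call without day 9 replicate 1 or 2. Rgs13 and Gfi1b lost their day 14 calls in these same 2 fits. Ltc4s was called at day 14 whichever day 9 library was left out. Without day 21 replicate 1, none of the 9 was called at day 21 against day 9, and without day 21 replicate 2 all 9 were. Without day 21 replicate 1, the log2 difference from day 9 was 1.31 for Dclk1, 1.01 for Avil, 0.76 for Trpm5, 0.65 for Pou2f3, 0.63 for Hpgds and 1.23 for Ltc4s, with adjusted p of 0.0505 to 0.4. It was 0.75 for Gfi1b, 0.51 for Alox5ap and 0.094 for Rgs13. Without day 9 replicate 1, the count was 1 at day 14, 3 at day 21 and 0 at day 30. Leaving out day 9 replicate 2 gave 1 at day 14 and 3 at day 21, and leaving out day 14 replicate 2 gave 1 at day 14. At day 30 it was 2 when either day 14 library was left out and 8 when either day 21 library was. Leaving out any other single library gave 4 at day 21. Every log2 difference from day 9 kept a positive sign except that of Alox5ap at day 14, which was -0.075 without day 9 replicate 2.

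The 9 genes also moved together between replicates of the same day. Every one was higher in day 21 replicate 1 than in replicate 2, by 1.57-fold to 3.43-fold with a median of 2.63, whereas 90% of all tested genes had a ratio between 0.612 and 2.08. At day 9, replicate 2 held less of all 9 than replicate 1, with a median ratio of replicate 1 to replicate 2 of 2.26. Replicate 3 to replicate 2 gave a median ratio of 2.35, while replicates 1 and 3 differed by 0.746-fold to 1.26-fold. The 2 day 14 libraries differed by 0.763-fold to 1.60-fold. The tuft gate genes, 12 other tuft markers described below of which 11 were counted in bulk, summed to 2.48 times as much in day 21 replicate 1 as in replicate 2. Other epithelial types differed between the same 2 libraries as well, with summed markers of Paneth cells 5.51-fold and enterocytes 3.46-fold higher in replicate 1, and those of goblet cells at 0.471 and enteroendocrine cells at 0.672 of the replicate 2 level. Their part in the tuft cell genes' values was not tested.

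**Figure D3:**
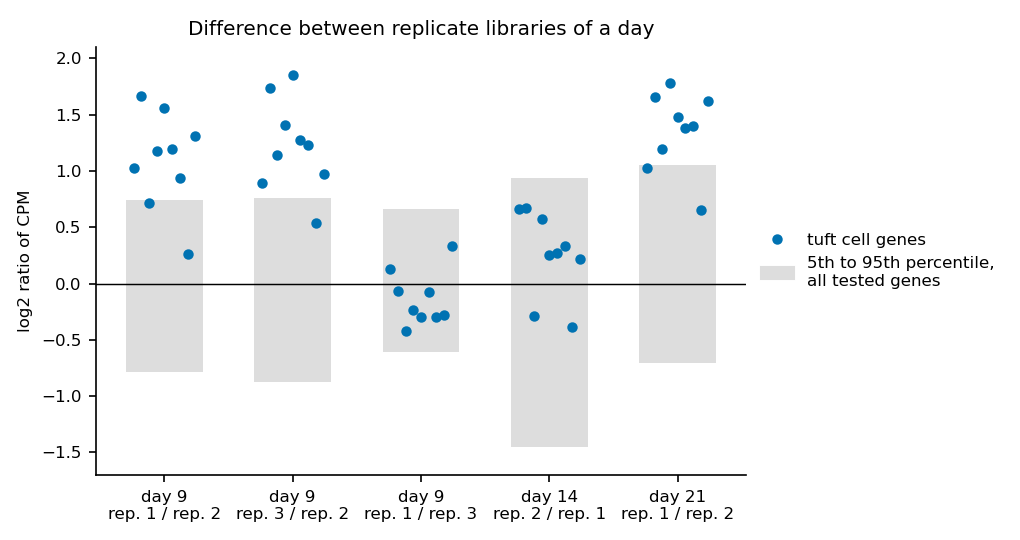
Log2 ratio of CPM between 2 libraries of the same day (y axis) for each tuft cell gene, by library pair (x axis). The grey band holds the middle 90% of all tested genes. All 9 points lie above 0 for day 21 replicate 1 over replicate 2, and for day 9 replicates 1 and 3 over replicate 2.

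Over the 8 libraries, pairs of members had Pearson r of log2 CPM from 0.714 for Trpm5 with Gfi1b to 0.992 for Dclk1 with Avil. Gfi1b was closest to Rgs13 (r = 0.973), and these 2 shared high day 14 values. The genes outside the 9 most like their mean included Pik3cg (r = 0.993), Lrmp (0.990), Fyb (0.989) and Bmx (0.989), out of 11408 candidates. Pou2f3 alone was closest to Pik3r5 (0.974), Pik3cg (0.973) and Pygl (0.970), and Dclk1 alone to Pygl (0.996), Gprc5c (0.990) and Pik3cg (0.989). Pik3cg, the catalytic subunit of a phosphoinositide 3-kinase driven by G proteins, had 5.25, 2.60 and 5.12 CPM at day 9, 7.44 and 9.71 at day 14, 22.7 and 9.03 at day 21, and 18.3 at day 30. Pygl, glycogen phosphorylase, reached 31.0 and 13.9 CPM at day 21 and 30.4 at day 30, against 2.15 to 6.77 at day 9. These correlations describe the same 8 libraries, in which the day and the replicate move all of them.

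Other genes of the tuft programme were read from lists that leave out the 9. The tuft gate genes included Sh2d6, Lrmp, Fyb, Matk, Bmx, Plcb2, Gng13, Ptgs1, Il17rb, Chat and Gnat3, and 10 of the list's 12 were tested. Sh2d6 was not counted in bulk, so sums of the list rest on 11 genes. Of all tested genes, 25.4%, 7.46% and 3.67% were called higher than at day 9 at days 14, 21 and 30. Called lower were 25.7%, 12.8% and 6.62%. The same shares apply to the counts in the lists that follow. Median log2 differences of the gate genes were 0.96, 1.78 and 1.93. Against day 9, 2 of the 10 rose at day 14, 6 at day 21 and 3 at day 30, and none fell. At day 21 they included Fyb (2.29, adjusted p = 0.0086), an adaptor of immune receptor signalling; Ptgs1 (1.79, adjusted p = 0.0066), or cyclooxygenase 1; Plcb2 (1.95, adjusted p = 0.011), the taste phospholipase; and Matk and Lrmp, at 1.63 and 1.56. Summed, the list had 25.8 to 59.0 CPM at day 9, 80.0 and 83.0 at day 14, 90.8 and 225 at day 21, and 171 at day 30.

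Of the taste-type cascade (Plcb2, Gnat3, Gng13, Gnb3, Itpr3, Tas1r3, Sucnr1 and Ffar3), 5 of 8 genes were tested. Plcb2 and Ffar3, a receptor for short-chain fatty acids (log2 2.39, adjusted p = 0.0336), rose at day 21, and the calcium channel Itpr3 stood at -0.09. At day 14 the list went the other way from the 9 members, with 0 called higher, 1 lower and a median log2 difference of -1.15. Its sum, in which abundant genes weigh most, was 455 to 470 CPM at day 9 and 170 and 179 at day 14. It was 459 and 450 at day 21, and 455 at day 30. At day 9 most of it lay in Itpr3, Tas1r3 or Ffar3, as the gate genes, which include Plcb2 and Gng13, summed to 25.8 to 59.0 CPM. The sum therefore does not follow the whole cascade. Gnat3, Gnb3 and the succinate receptor Sucnr1 averaged under 5 counts per library and were not tested. In eicosanoid synthesis, with 6 of 8 tested, 2 rose and 1 fell at day 21. Alox5, the 5-lipoxygenase that Alox5ap serves, rose (1.92, adjusted p = 0.0333) with Ptgs1, and the phospholipase Pla2g4a fell by 0.32 on the log2 scale (adjusted p = 0.0489). Of the type 2 immunity circuit, 6 of 7 were tested and none passed at day 21 or day 30. The interleukin 25 receptor subunit Il17rb was at 1.06 (adjusted p = 0.0718) and Chat, which makes acetylcholine, at 2.39 (adjusted p = 0.0908). Il25 itself averaged 3.5 counts and was not tested.

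Lineage regulators numbered 9, all tested. At day 21, 4 rose: the homeobox genes Hmx3 (2.57, adjusted p = 0.0035) and Hmx2 (1.74, adjusted p = 0.0428), the ETS factor Spib (1.90, adjusted p = 0.0144) and, by little, Sox4 (0.34, adjusted p = 0.048). The stem cell factor Ascl2 fell by 0.65 (adjusted p = 0.0036). At day 30, Hmx3 (2.85), Spib (2.26), Sox4 (0.73) and Atoh1 (0.84), the secretory lineage factor, were called higher. Of 7 tested cytoskeleton and membrane genes, Cd300lf (2.76, adjusted p = 0.0263), Vil1 (0.47) and Ezr (0.42) rose at day 21 and the keratin Krt8 fell by 0.59 (adjusted p = 0.0026), and by 0.92 at day 30.

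Several of the 9 genes are also used by blood cells, so other cell types were read beside them. Mast cells share Hpgds, Ltc4s, Alox5ap and Rgs13. Of 10 mast cell markers, 3 were tested and none was called at day 21 or day 30. Of their proteases and receptor chains, Cpa3, Cma1, Mcpt4, Ms4a2 and Fcer1a had 0 to 4 counts in every library. Mcpt1 had 26, 5 and 11 counts at day 9, 0 at day 14, 8 and 0 at day 21 and 0 at day 30, and Mcpt2 (up to 9) and Tpsb2 (up to 7) were as scarce. Hdc, which makes histamine, had 49, 29 and 31 counts at day 9, 15 and 0 at day 14, 72 and 63 at day 21 and 76 at day 30. The list's summed level of 56.6 to 85.8 CPM at day 9, 49.1 and 60.1 at day 14, 94.0 and 100.3 at day 21 and 101.4 at day 30 was nearly all Kit. Of 7 tested macrophage markers, 4 rose and 1 fell at day 21 and none was called at day 30. Their median log2 difference from day 9 was -1.65 at day 14, 2.96 at day 21 and 0.99 at day 30. Their sum, in which abundant markers weigh most, was 33.4 to 51.0 CPM at day 9 and 47.7 and 54.5 at day 14. It was 27.5 and 50.0 CPM at day 21, and 31.1 at day 30. Csf1r, 1 of the 7, had 13 and 54 counts at day 21 replicates 1 and 2. The macrophage sum of day 21 replicate 1 was 0.549 of that of replicate 2. For day 9 replicates 1 and 3 over replicate 2 the ratios were 0.867 and 1.32. The part of macrophages in the tuft cell genes' values was not tested. Of 7 tested lymphocyte markers, none was called at day 21 or day 30, and their sum was 4.23 to 9.86 CPM at day 9, 1.41 and 3.95 at day 14, 7.69 and 13.5 at day 21, and 3.31 at day 30. Between replicates the lymphocyte sum moved the same way as the tuft cell genes, by 1.75-fold for day 21 replicate 1 over replicate 2, and by 2.14-fold and 2.33-fold for day 9 replicates 1 and 3 over replicate 2. Stromal and endothelial markers summed to 0.773 to 1.503 CPM at day 9, 0 to 0.511 at day 14, 3.34 and 10.3 at day 21, and 2.52 at day 30. Of 5 tested, 2 rose at day 21 and none was called at day 30, and day 21 replicate 1 held 0.324 of the replicate 2 sum. Megakaryocyte and red cell markers summed to at most 2.41 CPM, and neither of the 2 tested was called at day 21 or day 30. No eosinophil marker had more than 8 counts in a library. Enteroendocrine markers had 4 genes higher and none lower at day 21, goblet markers 2 and none, and Paneth markers none and 1, so other secretory lists moved in the same comparisons. Their part in the result was not tested.

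In single cells the 9 genes were placed beside the gate genes. Kept cells numbered 3828 at day 7, 4685 at day 12 and 2768 at day 16, with median depths of 7957, 7560 and 11905 UMIs, where a UMI is 1 captured RNA molecule. Each day is 1 library, so values carry counting error only and no test between days was made. Each cell was thinned to 2000 UMIs, and a cell with a UMI of at least 3 gate genes was called tuft-like; Sh2d6 was not among the features used here, which left 11 gate genes. None of the 9 members is a gate gene. This gave 9 of 3828 cells at day 7 (0.235%, exact Clopper-Pearson 95% interval 0.108 to 0.446), 6 of 4685 at day 12 (0.128%, 0.0470 to 0.279) and 31 of 2768 at day 16 (1.12%, 0.762 to 1.59). Without thinning it was 30, 11 and 47 cells. Libraries shared 1 to 4 cell barcodes pairwise. Tuft-like cells were shallower than cells with no gate gene at day 16, with median depths of 7435 and 11967.5 UMIs.

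Per UMI sequenced, all 9 genes were at a higher level in tuft-like cells than in cells with no gate gene at days 12 and 16, and 8 of 9, all but Gfi1b, at day 7. In day 16 tuft-like cells the levels, as UMIs of a gene per-million UMIs of the same cells (also written CPM), were 1794 for Rgs13, 1115 for Avil, 1014 for Alox5ap, 1003 for Dclk1, 737 for Ltc4s, 444 for Trpm5, 393 for Hpgds, 177 for Pou2f3 and 30.9 for Gfi1b. In day 16 cells with no gate gene the same genes lay between 0.0289 for Gfi1b and 3.32 for Ltc4s. Dclk1 had 1003 CPM in day 16 tuft-like cells (exact Poisson 95% interval 885 to 1132), against 0.549 in cells with no gate gene. At day 7 the Dclk1 level in tuft-like cells was 310 (181 to 497), and at day 12 it was 495 (306 to 756). Gfi1b was at 0 UMIs in the 9 day 7 tuft-like cells, which allows up to 67.3 CPM, at 118 (38.3 to 275) at day 12 and at 30.9 (13.3 to 60.8) at day 16. Hpgds was at 821, 895 and 393 CPM in tuft-like cells of days 7, 12 and 16, while Rgs13 was at 511, 966 and 1794. These sums rest on 9, 6 and 31 cells.

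**Figure D4:**
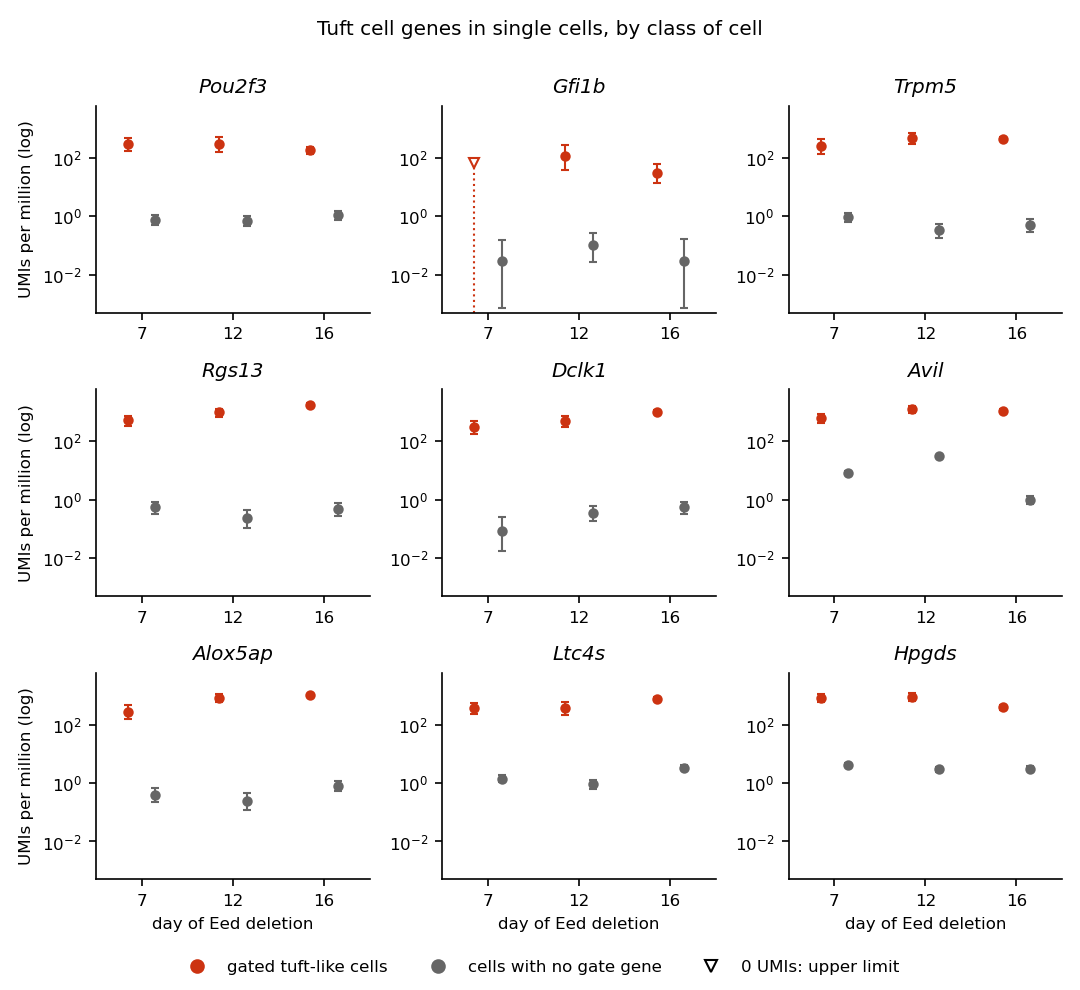
UMIs as CPM (y axis, log scale) of each tuft cell gene in tuft-like cells (red, left) and in cells with no gate gene (grey, right) at days 7, 12 and 16, with exact Poisson 95% intervals. The triangle is the upper limit for Gfi1b at day 7, where 0 UMIs were seen. Red points lie above grey ones for every gene and day with UMIs in both, by the least for Avil at day 12.

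After thinning, a UMI of Avil was found in 28 of the 31 day 16 tuft-like cells, of Dclk1 in 27, of Alox5ap and Rgs13 in 25 each, of Ltc4s in 24, of Trpm5 in 18, of Hpgds in 15, of Pou2f3 in 8 and of Gfi1b in 2. The transcription factors were thus the least often detected at this depth. At day 16, 30 of the 31 cells had at least 3 of the 9 members, and 12 cells had exactly 6, 7 had 7 and 1 had 8. Cells with at least 3 members numbered 22 at day 7, 15 at day 12 and 34 at day 16, and 7, 6 and 30 of them were tuft-like by the gate. The genes that led in these 71 cells over the 10773 cells with no member included Alox5, Spib, Pik3r5, Sh2d7 and Pygl, and the gate genes Lrmp, Plcb2, Bmx and Gng13. Spib, Pik3r5 and Pygl are also named above in the bulk libraries.

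Not all UMIs of the 9 genes lay in tuft-like cells. At day 16, these 31 cells held 90.5% of the Rgs13 UMIs, 85.8% of Dclk1, 80.7% of Alox5ap, 75.5% of Avil and 72.8% of Trpm5. They held 66.7% of Gfi1b, 56.5% of Ltc4s, 50.5% of Pou2f3 and 41.6% of Hpgds. The shares were lower on the other days, at 0% (Gfi1b) to 37.8% (Dclk1) at day 7 and 3.98% (Avil) to 67.2% (Rgs13) at day 12. At day 12 they exceeded 50% for 3 genes, Rgs13, Alox5ap and Gfi1b. The gate after thinning took 9 cells at day 7, where 30 passed without thinning, against 31 and 47 at day 16. At day 12 it took 6, where 11 passed. The part of this difference in the shares was not tested. At day 7, cells with no gate gene held 3 of 45 Dclk1 UMIs, 19 of 127 of Rgs13 and 1 of 6 of Gfi1b. They held 14 of 49 of Alox5ap, 27 of 67 of Pou2f3 and 33 of 79 of Trpm5. For Ltc4s, Hpgds and Avil it was 50 of 92, 143 of 244 and 293 of 425. The other UMIs outside tuft-like cells lay in cells with 1 or 2 gate genes after thinning. Free RNA was read from barcodes of 10 to 100 UMIs. Its Dclk1 level was 1.33, 2.09 and 9.41 CPM at days 7, 12 and 16, beside 1.27, 1.07 and 8.59 over all cells. Enterocyte-gated cells (at least 3 enterocyte markers, no gate gene) should lack the 9 genes, and the 79 of day 16 held no UMI of 8 of them. They held 22 UMIs of Ltc4s, or 19.7 CPM, which is above its 10.4 CPM in free RNA.

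**Figure D5:**
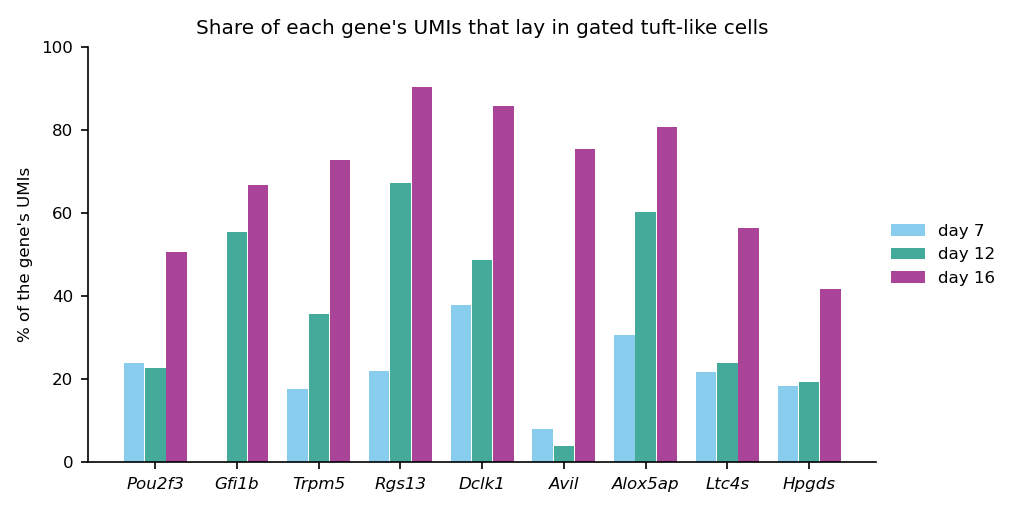
Percent of each gene's UMIs that lay in tuft-like cells (y axis) by day (7, 12 and 16). At day 16 Rgs13 is highest at 90.5% and Hpgds lowest at 41.6%, and Avil at day 12 is at 3.98%.

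Avil stood apart at day 12. At day 7 most of its UMIs lay in cells with no gate gene, as did those of Hpgds and Ltc4s. Tuft-like cells held 8% of the Avil UMIs at day 7 and 3.98% at day 12. Among cells with no gate gene, 53 of 3784 had an Avil UMI at day 7 (1.40%), 247 of 4620 at day 12 (5.35%, exact interval 4.72 to 6.03) and 6 of 2696 at day 16 (0.223%). Without thinning, the shares were 4.84%, 17.5% and 1.08%. The 247 cells had a median depth of 7601 UMIs, against 7561.5 over all day 12 cells with no gate gene. The level of Avil in all cells with no gate gene was 8.34, 30.6 and 0.983 CPM at days 7, 12 and 16, beside 7.53, 26.5 and 13.2 in free RNA. Another of the 9 genes had a UMI in 8 of the 53 day 7 cells, 4 of the 247 day 12 cells and 2 of the 6 day 16 cells. These shares were above those of cells without Avil for some genes, as for Hpgds at day 12 (1.62% with Avil, 0.526% without), on 4 cells, and for Pou2f3 at day 7 (5.66% with Avil, 0.0536% without), on 3 cells. A description of these cells, added after their number was seen, put Prss56 (4.23-fold), Ctse (3.11), Npy (3.00), Mt3 (2.82) and Wif1 (2.49) first among genes at a higher level in them. At day 7 the leading genes were Tuba1a (4.75-fold), Vim (4.24), S100a6 (4.02), Anxa2 (3.57) and Notum (3.10), with Clu at 2.29.

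Other genes in the 31 day 16 tuft-like cells were read against 2696 cells with no gate gene, at equal depth. Mki67, made by dividing cells, had a UMI in 2 of 31 (6.45%), against 27%, and Olfm4, a stem cell gene, in 4 of 31 (12.9%), against 45.9%. Lgr5, the stem cell gene whose GFP was sorted, had a UMI in 2 of 31 (6.45%), against 9.76%. Its level was 38.6 CPM (exact Poisson 95% interval 18.5 to 70.9), against 45.3, so no clear difference was seen for Lgr5. Cd24a was found in 30 of 31, against 31.2%, Sox9 in 21, against 19.99%, and Kit in 12, against 2.37%. Cdkn2a, a cell cycle inhibitor that PRC2 keeps silent in many cell types, had a UMI in 0 of 31. The exact upper limit was 11.2%, against 4.6% of cells with no gate gene. No difference in cells with a UMI was detectable at this depth. By level Cdkn2a was lower, at 0 UMIs with an upper limit of 14.2 CPM, against 27.2 CPM (exact Poisson 95% interval 25.5 to 29.0). Poisson intervals take each UMI as independent, which UMIs of the same cell need not be. Hmx3 was found in 16 of 31, Hmx2 in 15 and Spib in 12. Csf1r, C1qb, Cd3e, Cd79a, Cpa3 and Hdc, which define macrophages, lymphocytes and mast cells, had no UMI in tuft-like cells of any day. Summed over each list, mast cell markers had 54.7, 259 and 201 CPM in tuft-like cells of days 7, 12 and 16, all from Kit. Cells with no gate gene had 15.7, 18.3 and 12.6 CPM of them. Lymphocyte markers had 0, 47.1 and 23.1 CPM, with 1 gene detected at day 12 and at day 16, against 2.05, 3.69 and 5.87. Macrophage markers had 0, 0 and 7.71 CPM, against 61.0, 36.8 and 46.0. Ptprc, a gene of all white blood cells that is also known from a subset of tuft cells, had 6 UMIs in 2 of the 31 day 16 tuft-like cells (23.1 CPM, exact Poisson 95% interval 8.49 to 50.4), against 0.838 CPM in cells with no gate gene. It had no UMI in tuft-like cells of days 7 and 12. None of the tuft-like cells had 3 or more genes of the enterocyte, Paneth, goblet or enteroendocrine lists. Few cells with no gate gene did either, from 2.71% (enteroendocrine) to 9.53% (goblet) at day 16, so this 0 says little. Shares were at most 3.2% at day 7 and 1.75% at day 12, both for Paneth. Goblet markers summed to 0, 1202 and 88.7 CPM in tuft-like cells of days 7, 12 and 16, against 519, 578 and 3765 in cells with no gate gene.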

How the data were processed

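Bulk RNA was measured in 8 mouse libraries and single-cell RNA in 3. The deposited bulk table holds whole-number counts per gene, and the single-cell matrices hold counts of UMIs, none normalized by the authors. The tools named in the submitters' processing notes are Cell Ranger 3.0.2, DESeq2, STAR 2.5.3a, SICER 0.0.1 and Bowtie2 2.3.4.3, and the build is mm9. Which tool made which file and whether counting used strand is not given in the sources used here, so reads of antisense or overlapping genes cannot be separated. A library kit (TruSeq V2, single-end) is in the labels of day 14 replicate 2 only. Totals were 21328684 to 27900351 counts. Replicates differed by more than sampling noise (chi-square per degree of freedom 9.35 to 85.1), so each library counted once. In the bulk table, 1 column of per-sample values matched no sample label and was not used.

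Bulk counts were tested with edgeR 4.0.16 (R 4.3.3) by quasi-likelihood over all 8 libraries with 1 mean per day, filterByExpr, TMM scaling and Benjamini-Hochberg adjustment over 14692 genes at 0.05. SEs are the log2 difference over the square root of F. The scripts were tested on simulated data. The p-values measure the spread between libraries, whose separate animals are not described. DESeq2 1.42.0, other scalings, no filter, a replicate block, fits of fewer days and leaving out each library were alternatives. A barcode counted as a cell if its UMIs exceeded 10% of the 99th percentile among the 5000 largest, it had 500 or more genes, and mitochondrial UMIs made up 20% or less. No doublet caller was run. Intervals are exact and cover counting error only. Named genes were the 9 members, in each list up to 4 genes of smallest adjusted p, and the most similar genes by correlation. The members and lists were chosen with earlier results of these data known. One gene that the rule names is not reported here.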

Additional observations from a re-analysis of the deposited data

How the results depend on the processing

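The log2 differences of the 9 genes were refitted 612 times across alternatives, and 500 kept their direction and side of the threshold, 57 kept the direction but no longer passed, 32 newly passed and 23 changed sign. The count of genes called higher, 3 at day 14, 6 at day 21 and 5 at day 30 against day 9, ran from 1 to 4, 0 to 9 and 0 to 8 when single libraries were left out. Between days 21 and 14 it ran from 0 to 5, around 1, and between days 30 and 21 it was 0 throughout. The DESeq2 Wald test gave 8 at day 21 and 7 at day 30, and library-size scaling and no filter each gave 7 at day 21. Fitting only the days compared gave 3 at day 21, leaving out the day 14 libraries gave 3 at day 21 and 1 at day 30, and between days 21 and 14 library-size scaling and the DESeq2 Wald test each gave 2. Library-size scaling moved the median of all genes to 0.21 at day 21 and 0.20 at day 30. Replicate numbers did not pair the libraries (correlation of same-numbered deviations -0.0206 to 0.0476), so the replicate block is reported only here: it gave 6 at day 14 and 3 at day 30. The cause of these changes was not tested.

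Sign changes were confined to Alox5ap at day 14 and to comparisons between later days. Leaving out single libraries, Alox5ap at day 14 ran from -0.075 to 0.47. Between days 21 and 14, Gfi1b ran from -1.34 to 0.31, Rgs13 from -1.59 to 0.19 and Ltc4s from -0.25 to 0.40. Between days 30 and 21, Dclk1 ran from -0.083 to 1.40, Trpm5 from -0.078 to 1.12, Avil from -0.20 to 1.18, Alox5ap from -0.35 to 1.05, Hpgds from -0.57 to 1.05, Gfi1b from -0.59 to 1.06 and Ltc4s from -0.40 to 0.25. There Gfi1b was also -0.028 with DESeq2 size factors, -0.029 with the Wald test, -0.032 with only those days, -0.011 without day 14 and -0.24 with the replicate block. Hpgds was -0.016 with DESeq2 size factors or the Wald test, -0.021 with only those days and -0.27 with the block, and Alox5ap -0.039 with the block. The tuft-like share at day 16 was 0.723% with barcodes from 1000 UMIs thinned to 1000, and 1.97% with at most 10% mitochondrial UMIs. The shares rest on 6 to 31 cells as reported and on 3 to 42 under the alternatives.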
